A study of Mus musculus with 7 samples.

Results

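Meg3 and 9 further imprinted genes, Rian, Mirg, Peg3, Gnas, Kcnq1ot1, H13, Peg10, Snrpn and Igf2r, were followed through 4 RNA libraries and 3 H3K9me3 libraries of the mouse. The 10 genes were chosen by name, and every splicing event listed under their symbols was used. They had 22 rows in the event table of replicate 1 and 32 rows in that of replicate 2, and 19 events stood in both tables, of 11814 such events in all. For H3K9me3, the 1093 windows of 1 kb over their gene bodies with 10 kb either side were counted, of 2722443 windows in the genome.

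RNA came from wild-type ICR primary cortical neurons, prepared at embryonic day 16 and treated on day 11 in culture. One group of 2 libraries was exposed to 50 mM KCl for 10 min, which depolarises neurons, and the control group of 2 libraries was handled alike with a buffer that lists no KCl. Both were harvested 24 h later. H3K9me3, a histone mark of silent chromatin, was measured by ChIP-seq in hippocampus of wild-type C57BL/6 mice aged 3 months, in 2 libraries of mice given 24 h in a large cage with toys and then 1 week in the home cage, called enriched here, and in 1 library of home-cage mice.

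An imprinted gene is transcribed mainly from the copy inherited from 1 parent. The choice is carried by imprinting control regions, which are DNA-methylated on 1 parental copy, and in mouse cells the zinc finger protein ZFP57 with its partner TRIM28 binds the methylated copy and brings H3K9me3 to it. Meg3, Rian and Mirg are noncoding RNAs transcribed in the same direction from the maternal copy of the Dlk1-Meg3 domain on chromosome 12. Rian is a host of small nucleolar RNAs, and Mirg is a host of microRNAs. Kcnq1ot1 is a noncoding RNA of the paternal copy that silences its neighbours. Peg3, Peg10 and Snrpn are paternally expressed genes for a zinc finger protein, a protein of retrotransposon origin and a splicing component. Gnas codes for the stimulatory G protein alpha subunit and has several imprinted starts, H13 for signal peptide peptidase, and Igf2r for the receptor that clears insulin-like growth factor 2.

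The tables held 3643165 and 4666850 event reads in the KCl libraries, and 3566066 and 5385345 in the control libraries. The ChIP libraries held 13008562 and 8058236 fragments in enriched mice and 6187162 in home-cage mice. Whether replicates were separate cultures or animals is not in the labels, and p-values therefore reflect no more than the spread among these libraries, which may be technical. The cultures are bulk samples, in which fewer cells of a type and less RNA per cell cannot be told apart. The library kit is not stated to keep strand, so reads of a gene and of an overlapping antisense gene, such as Igf2r and Airn or Gnas and Nespas, cannot be told apart.

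The annotated starts of 4 of the genes are shown first, because H3K9me3 around them is described below. Each is the RefSeq stretch of GRCm38.p6 from 250 bases before to 50 bases after the start, read along the gene's strand. Capitals mark the letters TGCCGC on either strand, the core bound by ZFP57, or TGACGTCA, the full site of the activity-regulated factor CREB, whose search was added after the sequences had been read. The 2 motifs do not overlap here, and TGACGTCA reads the same on both strands. TGCCGC stood in 11.6% and TGACGTCA in 1.79% of 32851 promoters of this length.
Meg3, chr12:109540746-109541045, plus strand: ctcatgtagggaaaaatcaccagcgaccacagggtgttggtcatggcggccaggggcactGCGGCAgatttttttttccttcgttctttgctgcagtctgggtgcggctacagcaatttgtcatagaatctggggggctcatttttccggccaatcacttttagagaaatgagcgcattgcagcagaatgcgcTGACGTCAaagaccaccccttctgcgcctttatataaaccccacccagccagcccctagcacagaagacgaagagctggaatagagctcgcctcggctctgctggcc
Peg3, chr7:6730370-6730669, minus strand: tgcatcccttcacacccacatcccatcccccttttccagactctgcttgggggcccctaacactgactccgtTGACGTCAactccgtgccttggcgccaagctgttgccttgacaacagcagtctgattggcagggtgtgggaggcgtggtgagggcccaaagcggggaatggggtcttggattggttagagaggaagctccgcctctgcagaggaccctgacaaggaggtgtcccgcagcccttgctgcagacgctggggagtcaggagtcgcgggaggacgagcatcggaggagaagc
Gnas, chr2:174284070-174284369, plus strand: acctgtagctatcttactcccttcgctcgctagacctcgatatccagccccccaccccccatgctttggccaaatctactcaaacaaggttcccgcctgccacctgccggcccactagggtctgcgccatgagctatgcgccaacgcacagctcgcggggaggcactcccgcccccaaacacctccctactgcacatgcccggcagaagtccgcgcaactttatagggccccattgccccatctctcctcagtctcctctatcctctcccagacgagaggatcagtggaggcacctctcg
Snrpn, chr7:60005150-60005449, minus strand: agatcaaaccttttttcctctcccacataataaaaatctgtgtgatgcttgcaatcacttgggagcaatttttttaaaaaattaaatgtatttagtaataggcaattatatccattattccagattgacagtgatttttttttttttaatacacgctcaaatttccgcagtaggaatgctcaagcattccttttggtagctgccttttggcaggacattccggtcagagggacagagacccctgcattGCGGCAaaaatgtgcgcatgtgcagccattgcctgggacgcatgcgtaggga
The Meg3 start held 1 TGCCGC and 1 TGACGTCA, the Peg3 start 1 TGACGTCA and 0 TGCCGC, the Snrpn start 1 TGCCGC, and the Gnas start neither motif. A match is a run of letters and not a measured binding site. The 18 examined starts of these loci included 3 with TGCCGC, 1 each of Meg3, Snrpn and Mcts2, a gene within H13. Of 16 starts of other imprinted genes, 7 held it. Among all these starts, TGACGTCA stood only at 1 Meg3 start, the Peg3 start and 1 Zdbf2 start. Whether either motif goes with H3K9me3 was not tested.

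In neurons, the most marked splicing difference of the imprinted genes was in Meg3. An 81-base cassette exon at chr12:109549291-109549371, on the plus strand inside Meg3, had 177 inclusion and 26 skipping reads in KCl replicate 1 and 289 and 274 in KCl replicate 2, against 167 and 413 in control replicate 1 and 306 and 859 in control replicate 2. Inclusion reads were thus 87.2% and 51.3% of the reads of both forms in KCl neurons, against 28.8% and 26.3% in control neurons. Both KCl libraries lay above both controls, and KCl replicate 2 lay nearer to the controls than to the other KCl library. The mean share was 69.3% ± 25.4 in KCl neurons and 27.5% ± 1.79 in control neurons (SD, n = 2 each). The log2 odds of inclusion were 2.72 higher in KCl neurons (SE 0.79), with an adjusted p of 0.209 over all events in edgeR's quasi-likelihood test. They were 1.48 higher without KCl replicate 1 and 4.16 higher without KCl replicate 2.

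The same exon entered a pair of mutually exclusive exons, with chr12:109546430-109546542 as the other exon. The share of the form listed as inclusion was 37.7% and 70.9% in KCl neurons, against 90.05% and 90.01% in control neurons. The control libraries almost coincided, and both KCl libraries lay below them. The tables do not say which of the exons counts as inclusion. The log2 odds were 2.87 lower in KCl neurons (SE 0.74, estimate -2.87), with an edgeR adjusted p of 0.146. The estimate was -1.89 without KCl replicate 1 and -3.90 without KCl replicate 2. The 113-base exon of that pair was also listed as a cassette exon of its own, with inclusion shares of 98.85% and 98.95% in KCl neurons against 100% and 100% in control neurons. Its skipping form had 1 and 4 reads in KCl neurons and 0 and 0 in control neurons, and its edgeR adjusted p was 0.193.

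Nearer the start of Meg3, an alternative 5′ splice site extends an exon that starts at chr12:109543700 and ends at 109543849. The long form took 57.9% and 56.7% of reads in KCl neurons, against 31.6% and 42.2% in control neurons. Here the KCl libraries were close to each other and both lay above the controls. The mean was 57.3% ± 0.83 in KCl neurons and 36.9% ± 7.48 in control neurons (SD, n = 2 each), a log2 odds difference of 1.20 (SE 0.64) with an edgeR adjusted p of 0.588. In the authors' deposited tables, which test each replicate number by itself, the FDR of the cassette exon was listed as 0 and 2.56e-12, that of the exclusive pair as 0 and 0, and that of the splice site as 2.94e-11 and 2.27e-06. Of the 11814 events, 1.03% had an FDR under 0.05 in the authors' deposited tables of both replicates, and the 3 Meg3 events were among them. These events share reads and are not independent of each other.

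The other 6 Meg3 events had shares near an end of the scale in every library. Of these, 5 cassette exons had inclusion shares of at least 93.6% in every library. They include the 3 Meg3 events with most reads. The first of these, chr12:109543700-109543805, had 99.3% and 99.8% in KCl neurons and 100% and 99.8% in control neurons on 7967 reads. The second, chr12:109543700-109543849 listed as a cassette exon, had 99.4% and 99.9% in KCl neurons and 100% and 99.8% in control neurons. The third, chr12:109549479-109549552, had 99.7% and 97.2% in KCl neurons and 96.0% and 96.6% in control neurons, so that the KCl libraries were a little higher. One, at chr12:109544948-109545041, was included in 3.85% and 1.47% of reads in KCl neurons and in 2.37% and 2.24% in control neurons, so that the groups overlapped.

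**Figure D1:**
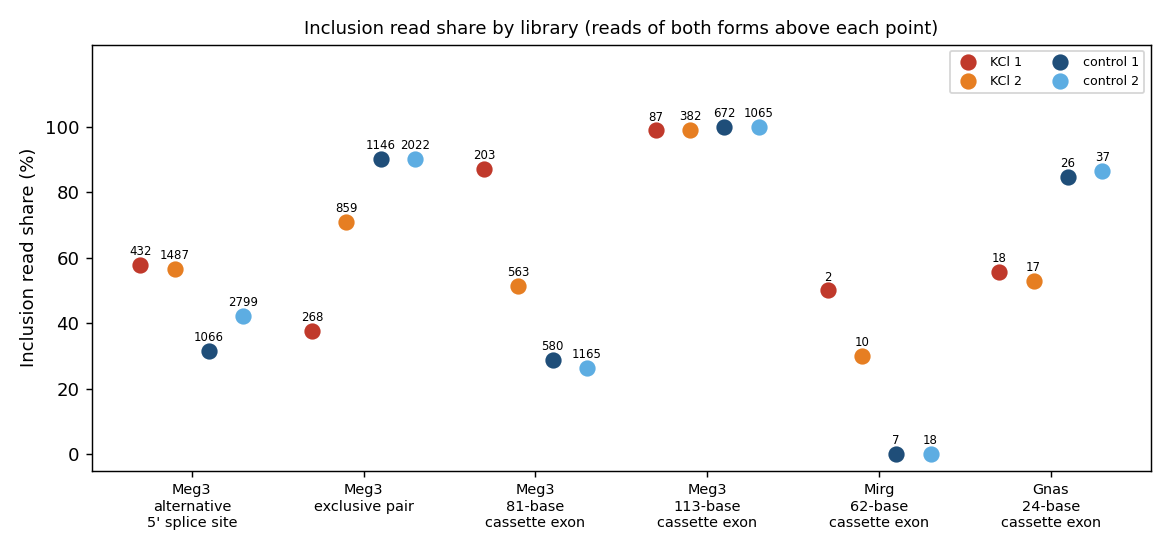
Share of reads in the inclusion form (vertical axis, percent of the reads of both forms) for 6 events of Meg3, Mirg and Gnas in each of the 2 KCl and 2 control libraries; the number above each point is the reads of both forms. The control libraries lie close together for the Meg3 cassette exon (28.8% and 26.3%) and the exclusive pair, where the KCl libraries lie apart, and the Mirg points rest on at most 18 reads each.

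Downstream of Meg3, the Rian event in both tables had 266 reads over the 4 libraries, and the 3 Mirg events had 283, 37 and 18. A 62-base exon of Mirg at chr12:109743357-109743418 had 1 inclusion and 1 skipping read in KCl replicate 1 and 3 and 7 in KCl replicate 2, against 0 and 7 in control replicate 1 and 0 and 18 in control replicate 2. Inclusion was thus seen in both KCl libraries and in neither control, on 37 reads in all, and its edgeR adjusted p was 0.418 (unadjusted 0.0173). The fitted odds against a group at 0 are no bound and are not given. In RefSeq this exon overlaps the hairpin of Mir412 by 12 bases, mature miR-412-3p by 3 bases and the hairpin of Mir369 by 1 base. The mature microRNAs of both hairpins are given because the exon lies between them, with the seed, bases 2 to 8, in capitals.
mmu-miR-412-5p: uGGUCGACcagcuggaaaguaau
mmu-miR-412-3p: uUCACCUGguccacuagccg
mmu-miR-369-5p: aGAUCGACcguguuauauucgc
mmu-miR-369-3p: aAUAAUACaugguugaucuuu
All 4 seeds differ. RefSeq places 10 microRNA hairpins inside Mirg, 3 inside Rian and 1 inside Meg3, all on the strand of the host gene. The level of these microRNAs was not measured in the libraries used here. The best-covered Mirg event, at chr12:109748956-109749009, had inclusion shares of 0% and 1.64% in KCl neurons and 3.39% and 0% in control neurons, too few inclusion reads for a test. The Mirg event at chr12:109739626-109739763 had 60% and 100% in KCl neurons and 33.3% and 83.3% in control neurons. The groups of both events overlapped. The Rian event, at chr12:109606214-109606343, had inclusion shares of 90% and 94.2% in KCl neurons and 97.4% and 91.7% in control neurons, which overlap.

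Among the protein-coding genes, a 24-base cassette exon of Gnas at chr2:174328108-174328131 had lower inclusion shares in KCl neurons, short of the adjusted threshold. Its inclusion share was 55.6% and 52.9% in KCl neurons, against 84.6% and 86.5% in control neurons, on 18 and 17 reads against 26 and 37 reads. The groups did not overlap and replicates were close, on 98 reads in all. The log2 odds were -2.30 (SE 1.01), with an edgeR adjusted p of 0.491 (unadjusted 0.0340). The long Gnas event from the same start, chr2:174328108-174330434, had inclusion shares of 99.5% and 99.7% in KCl neurons and 99.8% and 99.8% in control neurons on 8736 reads in all. Its skipping reads, 8 and 8 in KCl neurons and 4 and 5 in control neurons, equalled those of the 24-base exon in each library. The shares of the 24-base exon thus rest on few of the Gnas reads and are not shares of all Gnas transcripts. The remaining Gnas event, at chr2:174288491-174288586, had 18 reads in all, too few for a test.

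H13 had 1 event in both tables, at chr2:152689844-152689901, with inclusion shares of 98.6% and 98.4% in KCl neurons and 98.4% and 100% in control neurons. A second H13 exon, chr2:152703995-152704194, differed in replicate 1, where inclusion was 61.95% in KCl neurons (184 of 297 reads, 95% Clopper-Pearson interval 56.2% to 67.5%) against 90.5% in control neurons (427 of 472 reads, 87.5% to 93.0%). The authors' deposited table of replicate 1 lists an FDR of 3.06e-14 for it, and 2.26% of its rows had an FDR under 0.05, beside 0.828% in the deposited table of replicate 2. The table of replicate 2 has 2 rows with these coordinates, which cannot be told apart: 85.5% in KCl neurons against 92.1% in control neurons in one row, with a deposited FDR of 0.693, and 99.4% against 100% in the other row. The intervals here cover counting error only.

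Peg3 had 1 event in both tables, at chr7:6712950-6713012, with inclusion shares of 27.3% and 4.0% in KCl neurons and 6.67% and 7.5% in control neurons on at most 40 reads a library, so that the groups overlapped. No event of the other genes could be compared over both replicates. Snrpn had a different exon in each table, and Igf2r had 1 exon in the first and 3 others in the second. Kcnq1ot1 and Peg10 had no row under their symbols. The reads of an event can be given as CPM, its count scaled to the library's total. The Snrpn exon of replicate 1 had 338 CPM of all event reads in KCl neurons against 1682 CPM in control neurons, and the other exon of replicate 2 had 353 CPM in KCl neurons against 681 CPM in control neurons. For Igf2r the exon of replicate 1 had 34.6 CPM in KCl neurons and 10.7 CPM in control neurons, and the 3 exons of replicate 2 had 21.0, 42.6 and 22.3 in KCl neurons and 21.0, 26.6 and 18.6 in control neurons. Values of different exons are not replicates of each other, so no test was made.

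Over the imprinted genes, 17 of the 19 events had enough reads of both forms for the splicing test, and 0 passed edgeR's adjusted threshold of 0.05, as did 0% of the 10088 events tested. At an unadjusted p under 0.05 there were 5, of which 2 were higher and 3 lower in KCl neurons. Over all events 9.2% had such a p, 928 events, with 4.23% higher and 4.97% lower. DESeq2 and limma likewise called 0 of the 17 events and 0 of all events. The groups did not overlap for 9 of the 17 events, 5 higher and 4 lower, beside 40.7% of all events (21.2% higher, 19.5% lower). The median size of the log2 odds was 1.19 in the 17 events and 0.79 in all events. A list of other imprinted genes held 33 tested events in 19 genes, of which 0 were called, 2 were higher and 1 was lower at an unadjusted p under 0.05. The lower event is in Trappc9, at chr15:73042177-73042203, with inclusion shares of 1.61% and 2.86% in KCl neurons against 26.9% and 20.7% in control neurons. Its edgeR adjusted p was 0.240. Another Trappc9 exon, chr15:72925506-72925658, was higher, with 100% and 100% in KCl neurons against 98.8% and 98.0% in control neurons. The other higher event is a Ppp1r9a exon, with 58.1% and 36.8% in KCl neurons against 22.7% and 20.8% in control neurons.

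The 3 noncoding RNAs of the Meg3 domain had lower levels in KCl neurons in the mean, with groups that did not overlap. A level here is the reads of both forms of a gene's best-covered event, as CPM over all genes. Meg3 had 376 and 1059 CPM in KCl neurons, against 1065 and 2156 CPM in control neurons. KCl replicate 2 and control replicate 1 nearly met, and the log2 difference was -1.17 (SE 0.60) with an edgeR adjusted p of 0.485 over 6114 genes. Without KCl replicate 2, the Meg3 difference was -2.16, on a single KCl library assumed to vary like the controls. With the replicate number as a block it was -1.26, with an edgeR adjusted p of 0.00325. The block called 1259 of all 6114 genes, against 0 without it, and the labels do not say what a replicate number shares. The Meg3 estimate ran from -2.16 to -0.57 over all alternatives.

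Rian had 27.4 and 29.4 CPM in KCl neurons, against 54.3 and 51.5 CPM in control neurons. Its replicates were close and its groups well apart, with a log2 difference of -0.90 (SE 0.43) and an edgeR adjusted p of 0.452. Mirg had 14.4 and 34.5 CPM in KCl neurons, against 41.1 and 76.2 CPM in control neurons. Its highest KCl library stood a little below its lowest control, with a log2 difference of -1.26 (SE 0.59) and an edgeR adjusted p of 0.439. Leaving out KCl replicate 2 gave -2.09 for Mirg, leaving out KCl replicate 1 gave -0.75, and leaving out control replicate 2 gave -0.74. A separate Rian event found only in replicate 2 had 47.6 CPM of all event reads in KCl neurons against 133 CPM in control neurons.

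Within Meg3, all 10 events had lower level estimates in KCl neurons, on the log2 scale from -1.97 to -0.75 with a median of -1.16. Lower estimates made up 48.8% of all events. At an unadjusted p under 0.05, 3 of the 10 were lower and 0 higher, beside 6.85% of all events that were lower and 4.08% that were higher, and 0 were called by edgeR, as were 0% of all events. For 6 of the 10 the groups did not overlap, all lower, beside 21.4% of all events that did so in that direction and 20.5% in the other. The events overlap in reads, so their number adds no replicates. The lowest was the rarely included exon at chr12:109544948-109545041, with 78 and 340 reads of both forms in KCl neurons against 634 and 983 in control neurons (log2 difference -1.97, SE 0.63, edgeR adjusted p 0.411).

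The protein-coding genes showed no common direction. Peg3 had 7.53 and 14.2 CPM in KCl neurons and 10.5 and 21.5 CPM in control neurons, with a log2 difference of -0.56 (SE 0.61) that turned to 0.06 without control replicate 2. Gnas had 1138 and 1354 CPM in KCl neurons and 1598 and 1281 CPM in control neurons, and H13 had 48.6 and 72.5 CPM in KCl neurons and 42.5 and 61.2 CPM in control neurons. In all 3 genes the groups overlapped. The H13 difference, 0.22 (SE 0.46), turned to -0.01 without control replicate 1 and to -0.16 without KCl replicate 2. Of the 6 genes measured in both tables, 0 were called by edgeR, 0 had an unadjusted p under 0.05, and 5 estimates were lower in KCl neurons. Beside these, 0% of 6114 genes were called, 12.3% had such a p (4.94% higher, 7.33% lower) and 47.5% had a lower estimate. The groups did not overlap for 3 of the 6 genes, all lower, beside 21.2% of all genes that did so in that direction and 22.1% in the other. The median log2 difference was -0.73 in the 6 genes, 0.19 in 19 other imprinted genes of 55 listed, and 0.04 in all genes.

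Dlk1, the paternally expressed gene that shares the domain with Meg3 and codes for a ligand-like membrane protein, had 26.0 and 40.8 CPM in KCl neurons, against 11.1 and 15.0 CPM in control neurons. Both KCl libraries lay above both controls (log2 difference 1.34, SE 0.52, edgeR adjusted p 0.379). Of the 19 other imprinted genes, 0 were called by edgeR, and 3 were higher and 2 lower at an unadjusted p under 0.05. Of all genes, 4.94% were higher and 7.33% lower at such a p. The 3 higher were Dlk1, Plagl1 and Gab1, and the 2 lower were Inpp5f and Dhcr7. The groups did not overlap for 3 that were higher and 6 that were lower, beside 22.1% and 21.2% of all genes.

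Markers of cell types differed between the same libraries, and their part in these results was not tested. The summed CPM of 5 of 8 neuronal markers was 211 and 866 in KCl neurons, against 1562 and 2368 in control neurons. Astrocyte markers, 4 of 6 measured, summed to 1440 and 1003 CPM in KCl neurons and 706 and 698 in control neurons. Oligodendrocyte lineage markers, 4 of 6, summed to 1974 and 1087 CPM in KCl neurons and 311 and 336 in control neurons, and vascular and fibroblast markers, 3 of 5, to 2902 and 2240 CPM in KCl neurons and 431 and 517 in control neurons. Progenitor markers, 2 of 4, summed to 547 and 591 CPM in KCl neurons and 156 and 340 in control neurons. The order of the 4 libraries was the same for the neuronal marker sum, for Meg3 and for Mirg. Rian, Peg3, Gnas and H13 each had another order than that. How many of all genes share the order of Meg3 was not counted. Of 4 microglial markers 0 were measured. Over the 4 libraries, the genes whose centred log2 levels lay closest to those of Meg3 were Prokr2, a prokineticin receptor, Foxk2, a forkhead factor, and Cd200, a membrane glycoprotein, at distances of 0.110, 0.112 and 0.124 among 3254 genes. Prokr2, for example, had 26.7 and 81.0 CPM in KCl neurons, against 73.9 and 160 CPM in control neurons.

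**Figure D2:**
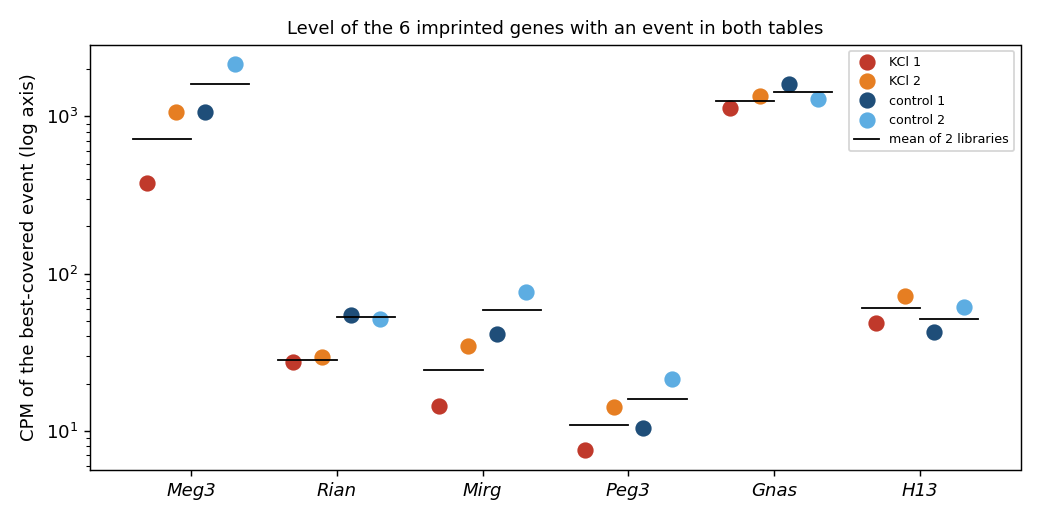
CPM of the best-covered event (log axis) for the 6 imprinted genes with an event in both tables, with a point per KCl and control library and a line at the mean of each group of 2. The KCl points of Meg3, Rian and Mirg lie below the control points, while those of Peg3, Gnas and H13 are mixed with them.

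In hippocampus, H3K9me3 formed a block over the start of Meg3. Signal is given as fragments per kb divided by the library's own median over 10 kb windows, so that 1 is background. A window is called high at 3 times background or more in all 3 libraries. The samples include no input library, so for every high window the mark and uneven coverage cannot be told apart by this measure. A run of 6 windows, chr12:109537001-109543000, was high, from 3995 bases before to 2004 bases after the start of Meg3. The block had 155 and 78 fragments in enriched mice and 82 in home-cage mice, which is 5.50 and 4.19 times background in enriched mice and 5.94 times in home-cage mice. Of 12577 runs of high windows in the genome, 1.14% held 6 windows or more. The block also covers the start of the gene model Gm34081. The promoter printed for Meg3 lies inside it.

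Enriched and home-cage mice did not differ at the Meg3 block beyond counting error: the ratio of enriched over home-cage signal was 0.807, with a 95% counting interval from 0.625 to 1.05. In the first window of the block, chr12:109537001-109538000, signal was 4.26 and 3.23 times background in enriched mice and 7.39 times in home-cage mice. The ratio there was 0.501, with an interval from 0.268 to 0.969, and the limma adjusted p over all windows rounded to 1.00. The germline control region of the domain lies between Dlk1 and Meg3. Of the 66 windows in that interval more than 10 kb before Meg3, 0 were high. The highest, chr12:109468001-109469000, was outside the windows chosen for the 10 genes. It had 2.77 and 1.61 times background in enriched mice and 5.22 times in home-cage mice. No window was assigned to the control region itself, so its own signal is not given. At 2.3 to 4.7 fragments per kb of background, the 66 windows are not shown to lack the mark.

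Peg3 and Gnas also had a high window at a start. The Peg3 window at chr7:6730001-6731000, which holds the start, was at 3.62 and 3.23 times background in enriched mice and 4.78 times in home-cage mice. A further window inside Peg3, chr7:6710001-6711000, had the highest mean of this gene but fell short of the threshold in 1 library, with 4.47 and 2.26 times background in enriched mice and 5.65 times in home-cage mice. In Gnas the 2 windows from chr2:174284001 to 174286000, at its most upstream start, were high. The second had 3.62 and 3.55 times background in enriched mice and 5.65 times in home-cage mice.

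Kcnq1ot1 carried 6 high windows, none of them at its start. The highest, chr7:143250001-143251000, lies 46047 bases from the start inside the transcribed region, with 8.30 and 5.48 times background in enriched mice and 7.83 times in home-cage mice. It was the highest by mean of all 20 high windows. At the start itself, which is the control region of that domain, the 2 kb were below the threshold in every library. They had 2.02 and 2.58 times background in enriched mice and 2.17 times in home-cage mice. The libraries differed more in the 1 kb window just inside the start, chr7:143295001-143296000. It had 1.49 and 3.55 times background in enriched mice and 5.65 times in home-cage mice, short of the threshold in enriched replicate 1. These values rest on 7 and 11 fragments in enriched mice and 13 in home-cage mice. The limma p was 0.000869 unadjusted and 0.9999 adjusted over all windows, so no difference was called.

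The other genes had isolated windows. Snrpn had 2, with the higher at chr7:60316001-60317000 (5.11 and 4.19 times background in enriched mice, 4.35 in home-cage mice). Igf2r had 1, at chr17:12679001-12680000, which lies past the end of the gene (4.89 and 4.84 in enriched mice, 6.96 in home-cage mice). Rian had 1, at chr12:109615001-109616000 (4.04 and 4.84 in enriched mice, 3.48 in home-cage mice), and Mirg had 1, at chr12:109758001-109759000, in the flank of the gene (5.74 and 3.23 in enriched mice, 3.48 in home-cage mice). H13 and Peg10 had 0. In all 20 of the 1093 windows were high, 1.83%, beside 0.616% of all windows of the genome.

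**Figure D3:**
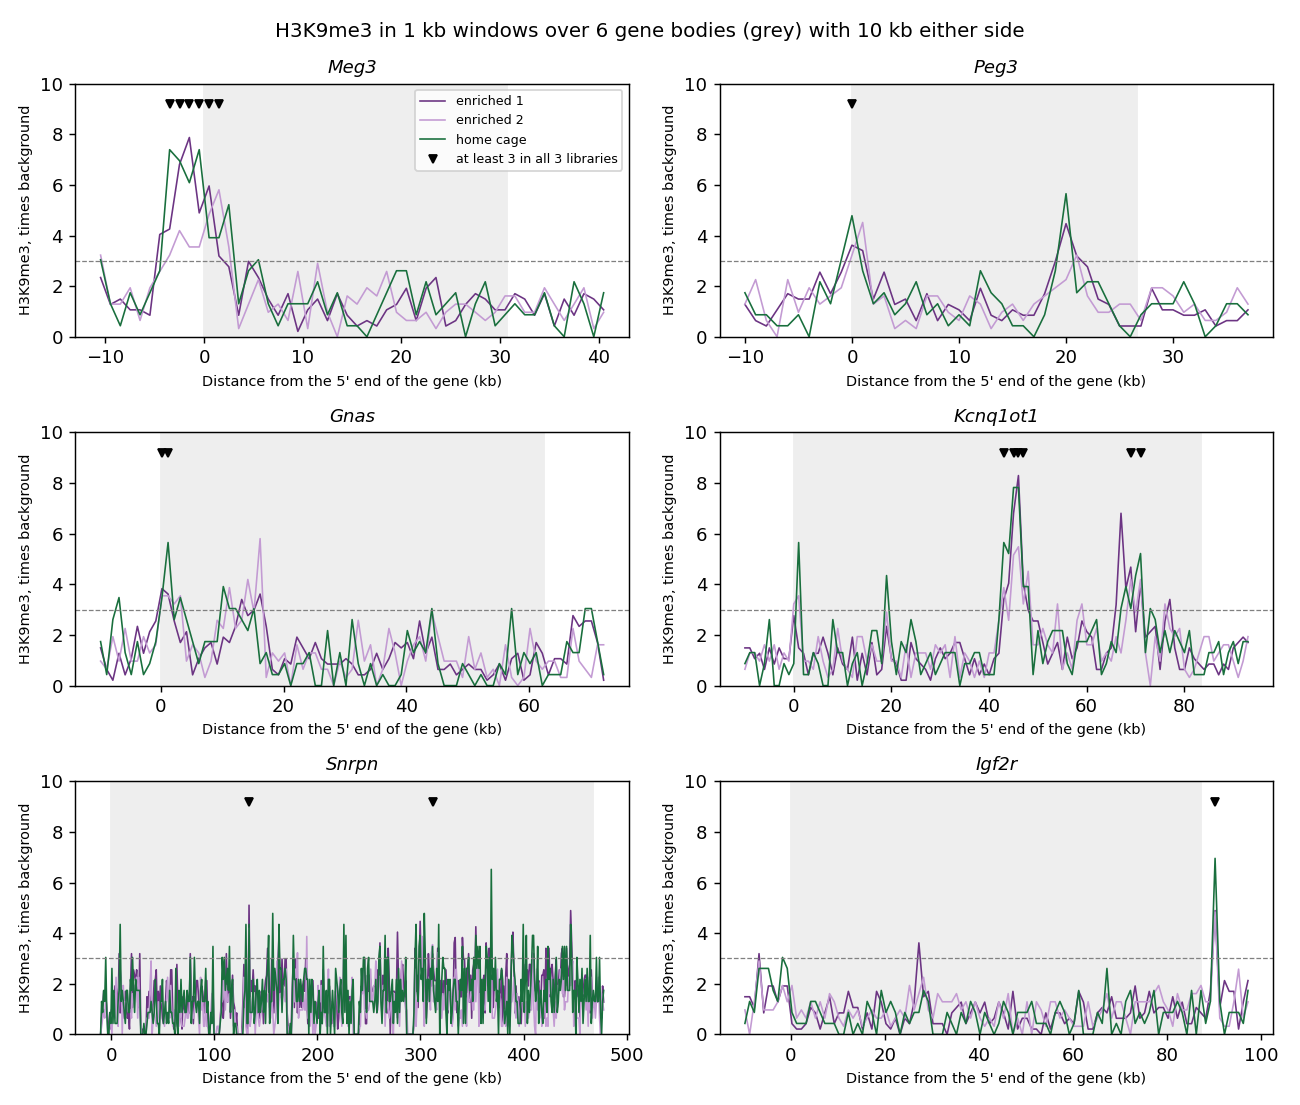
H3K9me3 in times background (vertical axis) in 1 kb windows against distance from the 5′ end of the gene (horizontal axis, kb; gene body in grey) for 6 genes in the 2 enriched libraries and the home-cage library; triangles mark windows of at least 3 times background in all 3 libraries, a dashed line the threshold. The 6 triangles of Meg3 sit together at its start, and those of Kcnq1ot1 lie inside the gene.

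Around the annotated starts, counted over 2 kb, 2 of the 18 starts of the 11 genes of these loci that have a RefSeq promoter were high, Meg3 and Peg3, beside 1.42% of 32851 starts. The main Meg3 start had 5.43 and 4.19 times background in enriched mice and 5.65 times in home-cage mice, and the Peg3 start had 3.62 and 4.35 in enriched mice and 4.57 in home-cage mice. Imprinted starts that stayed below the threshold in 1 library or more were the most upstream Gnas start, at 3.51 and 2.58 times background in enriched mice and 3.48 in home-cage mice, and the Snrpn start at chr7:60005199, at 3.40 and 1.13 in enriched mice and 2.83 in home-cage mice. Airn, the noncoding RNA that silences Igf2r, had 1.91 and 2.10 in enriched mice and 1.30 in home-cage mice. Mcts2, which lies within H13, had 0.64 and 0.48 in enriched mice and 0.43 in home-cage mice. At 2.3 to 4.7 fragments per kb of background, a start with no more than 3-fold enrichment rests on few fragments, so the starts below the threshold are not shown to lack the mark. Among other imprinted genes, 5 of 16 starts were high, in 4 of 12 genes. The Mest starts at chr6:30738050 and chr6:30738053 hold the same fragments and were both counted. Mkrn3, a zinc finger gene of the Snrpn domain, was the highest. It had 10.0 and 5.65 times background in enriched mice and 7.39 times in home-cage mice.

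**Figure D4:**
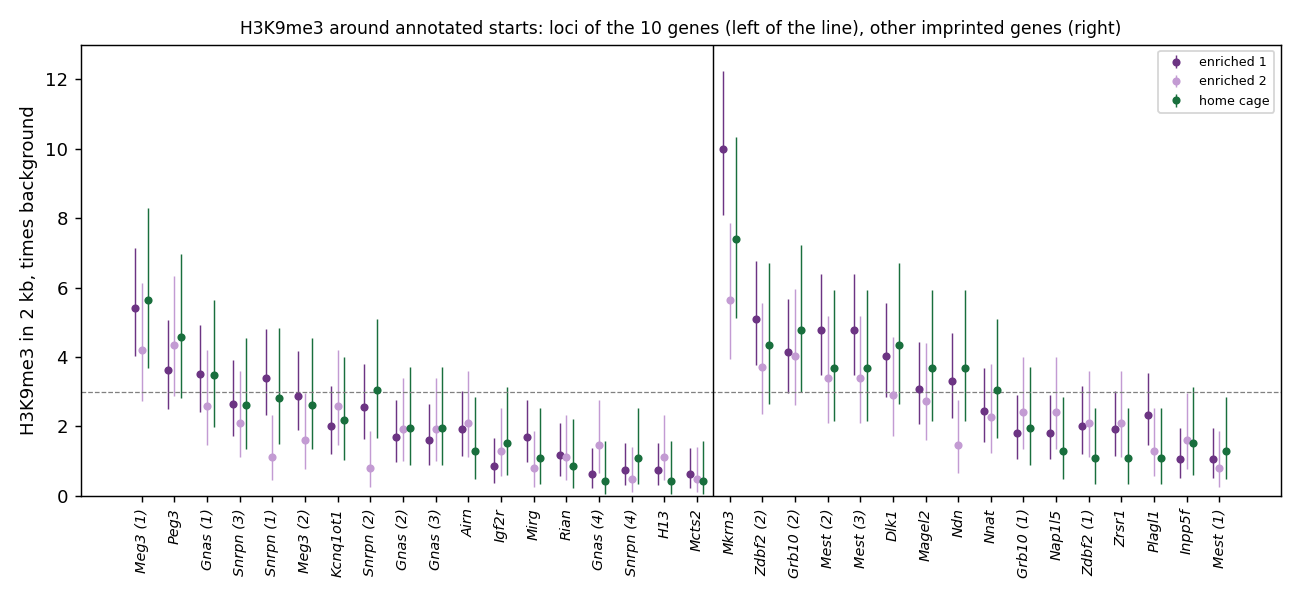
H3K9me3 in times background over 2 kb around annotated starts in the 2 enriched libraries and the home-cage library, with 95% exact Poisson intervals of the fragments; a number in brackets counts the starts of a gene along the chromosome, and the dashed line is 3 times background. Left of the black line, the first Meg3 start and the Peg3 start have all 3 points above the dashed line, and every other start there has 1 point or more below it.

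Over whole gene bodies with 10 kb either side, Meg3 had 1.83 and 1.64 times background in enriched mice and 1.93 times in home-cage mice. It stood at the top of the 10 genes, and 5.53% of 49943 genes had as much or more. Kcnq1ot1 followed at 1.63 and 1.60 in enriched mice and 1.69 in home-cage mice, with 7.49% of genes at or above it. Peg10 had 1.51 and 1.25 in enriched mice and 1.74 in home-cage mice, Snrpn had 1.63 and 1.15 in enriched mice and 1.57 in home-cage mice, and Mirg 1.41 and 1.33 in enriched mice and 1.60 in home-cage mice. Peg3, Gnas and Rian stood between 1.16 and 1.45 times background in all libraries. Igf2r had 0.98 and 1.04 in enriched mice and 0.88 in home-cage mice, and H13 stood lowest with 0.88 and 0.85 in enriched mice and 0.74 in home-cage mice.

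No difference between enriched and home-cage mice passed the test in these 10 genes. With limma, 0 of the 10 genes had an adjusted p under 0.05, as did 0% of 47617 genes, and 0 had an unadjusted p under 0.05, beside 1.23% of all genes. Differences ran from -0.38 (SE 0.22) in Peg10 to 0.18 (SE 0.21) in H13 on the log2 scale, and that of Meg3 was -0.20 (SE 0.18). For Peg10 the ratio of enriched over home-cage signal was 0.777, with a 95% counting interval from 0.636 to 0.955, and both enriched libraries lay below the home-cage library. Counting error leaves out the spread between mice, for which home-cage mice have 1 library only. Of 54 windows of these genes with enough fragments, 0 passed limma's adjusted threshold, beside 0.00346% of 57856 windows, and 4 were lower and 0 higher at an unadjusted p under 0.05. Over all windows 3.13% had such a p, 1812 of them lower and 1 higher, so lower windows were not particular to these genes. Over all genes, 211 were higher and 375 lower at such a p in limma. Scaling over all 10 kb windows turned the gene counts to 415 higher and 319 lower. Under that scaling the window counts stayed at 4 higher and 1989 lower. The direction over genes thus depended on the scaling, while that over windows did not. With 1 home-cage library, the lower windows are still not shown to be a loss of the mark over the genome.

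**Figure D5:**
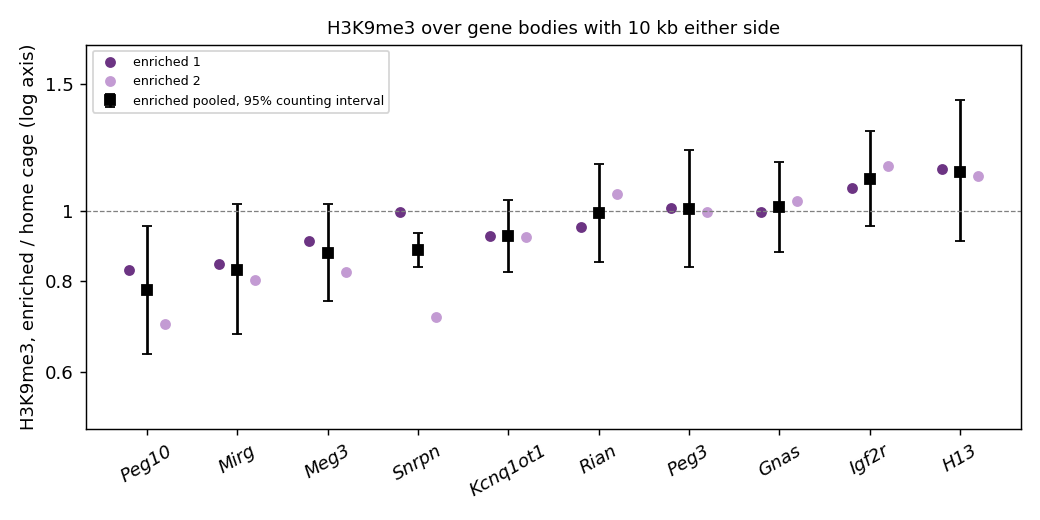
H3K9me3 over gene bodies with 10 kb either side as the ratio of enriched over home-cage signal (log axis) for the 10 genes, ordered by the pooled ratio; squares pool both enriched libraries with a 95% counting interval, and circles are the single enriched libraries. Peg10, at 0.777, and Snrpn have an interval that ends below 1, and the enriched libraries of Snrpn lie apart from each other.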

How the data were processed

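Members and lists were chosen with earlier results of these data known. Per the file headers, the RNA tables that the authors deposited hold a whole-number count of reads for each form, inclusion and skipping, of events of 5 types. For each replicate number the authors deposited p-values and FDRs as well. A further 2 count columns of KCl in a control table could not be assigned to a sample and were not used. The ChIP files that the authors deposited are signal tracks of coverage, and 100% of their values were whole multiples of a step, within 0.01. The submitters' processing notes name CASAVA 1.7, BWA 0.7.12, MACS2, TopHat2 and build mm10, without roles. Event counter, annotation and duplicate handling: not given in the sources used here.

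The 11814 events found once in each table were used. Flanking exons are not listed, and 2634 of 19447 and 3120 of 22703 rows with equal coordinates were left out. Inclusion shares are not corrected for length. For splicing, edgeR 4.0.16 in R 4.3.3 fitted both forms by quasi-likelihood with terms for library, form and form by KCl, where each form averaged 1 read or more. Levels used the same test on summed forms with TMM scaling and a minimum mean of 1 read. DESeq2 1.42.0 and limma 3.58.1 were alternatives. P-values were adjusted by Benjamini-Hochberg over the whole table, threshold 0.05.

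Fragments were recovered from the coverage (207, 238 and 285 bases long in enriched replicates 1 and 2 and home cage), at most 2 per start, and tested with limma-voom, assuming that the lone home-cage library varies like the enriched ones. A mean of 20 fragments was required for genes and 10 for windows. Libraries were scaled over 10 kb windows in the lower 75% of signal. Gene models, promoters and microRNAs are RefSeq GRCm38.p6, which is mm10. Intervals are exact and cover counting error only. Named events were, per gene, the 3 with most reads, those with an unadjusted p under 0.05 and those with a deposited FDR under 0.05; named windows were the highest by mean. Others were chosen after their values were seen, as was the motif TGACGTCA. Alternatives were a replicate block, other tools, filters, scalings, caps, thinning, thresholds and leaving out each library. Other software was matplotlib 3.10.9, scipy 1.17.1, pandas 2.3.3, numpy 2.4.6 and Python 3.11.15.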

Additional observations from a re-analysis of the deposited data

How the results depend on the processing

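With the replicate number as a block, 2 of the 17 tested Meg3, Mirg, Rian, Peg3, Gnas and H13 events were called for splicing in edgeR (against 0), the Meg3 exclusive pair (adjusted p 0.000165) and its 81-base exon (0.00071), 9 of 19 event levels were called, and 2 of 6 gene levels, Meg3 (adjusted p 0.00325) and Mirg (0.0112). The block also raised calls over all items to 167 for splicing, 1359 for event levels and 1259 for genes. The numbers share only a number in the labels: same-numbered libraries deviated together with correlations of 0.623 for gene levels and 0.156 for shares, over 2 pairs. Leaving out each RNA library gave 0 to 0 splicing calls, 0 to 4 event level calls and 0 to 1 gene level calls, the most without KCl replicate 2 (4 events, and the Meg3 gene), where 434 of 11814 events and 302 of 6114 genes were called over all items. DESeq2 called 74 event levels and 55 gene levels over all items, against 0 in edgeR, none in these genes. High windows numbered 20 (0.616% of all windows of the genome), 64 at 2 times background (2.37%), 2 at 5 times (0.0689%), and 24 to 47 when each ChIP library was left out (0.828% to 1.49%), the most without enriched replicate 2. No gene, event or window of these genes was called at the outset, so no call could reverse. The uncalled level estimates of Peg3 and H13 kept their sign in 10 and 9 of 11 alternatives, and among uncalled splicing estimates those of the Rian, Peg3 and H13 events, the Mirg event at 109739626 and the Meg3 exons at 109544948 and 109558237 changed sign in 1 or 2 alternatives each. Leaving out an enriched library gives ratios with no test, and leaving out the home-cage library leaves no comparison. With 2 libraries a group and few reads in most events outside Meg3, depth limits the splicing of Mirg, Peg3 and Rian, and 1 home-cage library limits every housing comparison.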
